A study of Danio rerio with 9 samples.

Results

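Transcripts of 7 genes of protein absorption were followed library by library in zebrafish (Danio rerio) intestine: the peptide transporter genes slc15a1b and slc15a2, the amino acid carrier genes slc6a19a.1, slc7a9 and slc3a1, and the brush border peptidase genes anpepb and dpp4. They were chosen by name, and the names were picked with earlier results of the same libraries known, so their differences between groups are given as a description. All 7 were found among the 26983 genes of the deposited tables, and all 7 were among the 19450 genes that passed the filter on low counts. The study sequenced RNA of 9 intestine samples in 3 groups of 3, coded D3, SBM and FM. By its title, the study concerns the compound β,β-dimethylacryloyl shikonin in enteritis brought on by soybean meal. What each code stands for is not written out in the labels, nor are strain, age, sex, diet, dose or time, so the codes serve as group names here. Whether libraries of a group came from separate fish is not stated either; p-values therefore cover the variation among these libraries, whose source may be technical.

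Dietary protein reaches the intestinal surface as short peptides. Peptidases anchored in the brush border, such as aminopeptidase N and dipeptidyl peptidase 4, trim these peptides to free amino acids, dipeptides and tripeptides. Proton-coupled carriers of the SLC15 family then bring in dipeptides and tripeptides, and separate carriers, driven by sodium or working by exchange, bring in free amino acids.

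Total counts per library ran from 34436497 to 36203230, so counting error was small for these genes: the lowest count of any of the 7 in any library was 436, for slc6a19a.1 in FM library 3. Genes that define enterocytes were present in every library, with fabp2 between 1317 and 5478 CPM (counts scaled to library sizes corrected by TMM factors) and vil1 between 802 and 1809.9 CPM. The libraries also differed in transcripts of other organs. Of 17 hepatocyte markers found, the summed share of counts was 1.85%, 6.53% and 0.128% in the D3 libraries, 0.376%, 3.55% and 0.0524% in SBM, and 0.148%, 0.307% and 0.0514% in FM. Of 15 oocyte markers found, it was 0.0305%, 0.0293% and 0.504% in D3, 0.493%, 0.0158% and 0.072% in SBM, and 0.0106%, 0.0149% and 0.00442% in FM. D3 library 3 and SBM library 1, highest in oocyte markers, were also highest in 12 proliferation markers. Exocrine pancreas markers (16 found) took 6.86% to 12.4% of counts in D3, 9.98% to 14% in SBM and 12.3% to 15.8% in FM. In bulk tissue, fewer cells of a type and less RNA per cell cannot be told apart, and this holds for every level below.

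Together the 7 genes took 0.483%, 0.458% and 0.305% of all counts in the D3 libraries, 0.465%, 0.527% and 0.582% in SBM, and 0.654%, 0.854% and 0.764% in FM. On the deposited FPKM scale, which divides counts by gene length and library total and so allows levels of different genes to be compared, anpepb stood far above the rest, at 574 to 1912 FPKM over the 9 libraries. By mean, slc15a2 came next at 124 to 319.6 FPKM, though in D3 library 1 slc15a1b (171.5 FPKM) stood level with it (171 FPKM). The range of slc15a2 overlapped those of dpp4 and slc15a1b and lay above those of slc3a1, slc7a9 and slc6a19a.1. The ranges of dpp4 (74.4 to 146 FPKM) and slc15a1b (61.8 to 171.5 FPKM) overlapped, and so did those of slc3a1 (32 to 85.5 FPKM) and slc7a9 (19.6 to 61.4 FPKM). By mean of the 9 libraries slc6a19a.1 was lowest, though in D3 library 1 (49.1 FPKM) it exceeded slc3a1 (44.1 FPKM) and slc7a9 (20.5 FPKM). It was also the most variable, at 3.1 to 49.1 FPKM, where the highest library held 15.8 times the level of the lowest. For the other genes that ratio lay between 1.97 (dpp4) and 3.33 (anpepb).

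**Figure D1:**
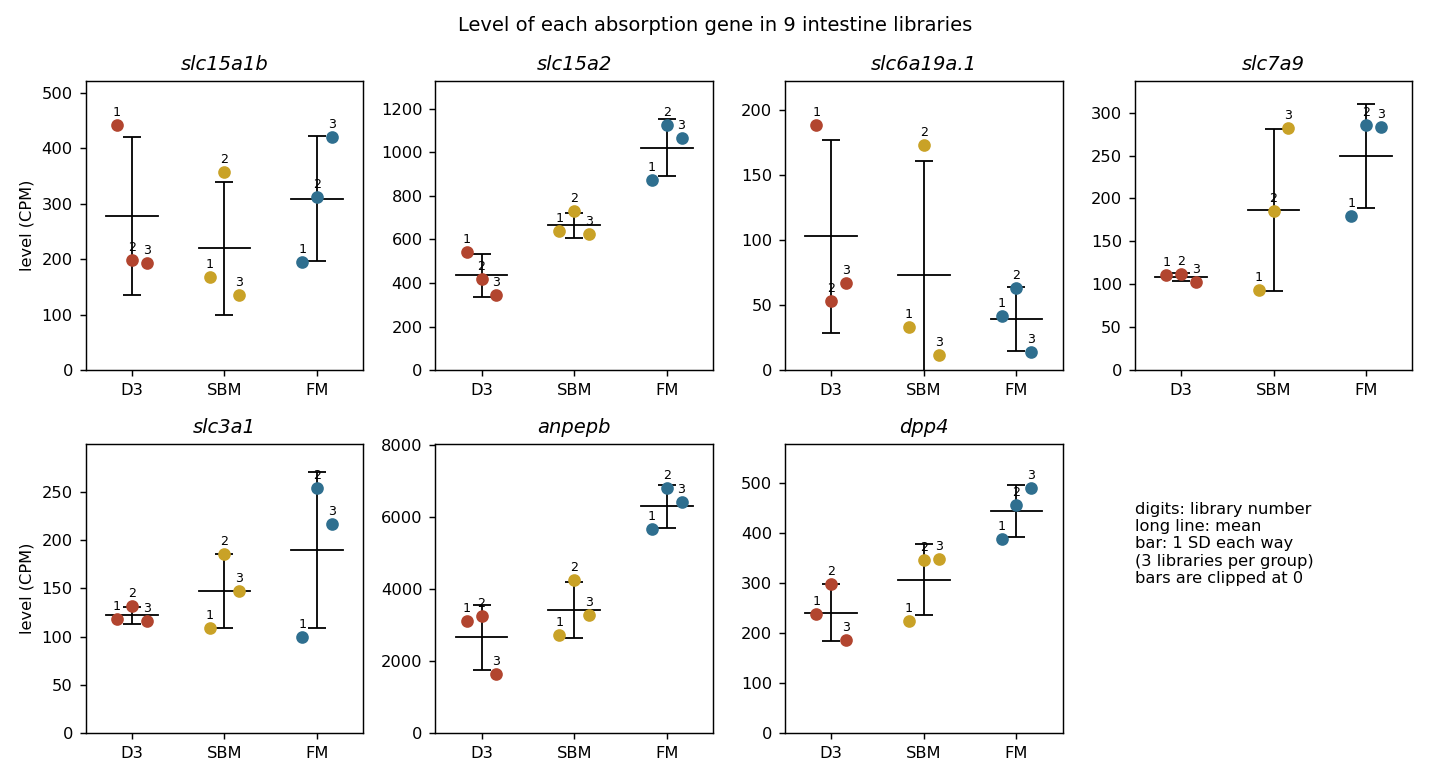
Level in CPM (vertical axis, from 0) of the 7 absorption genes in the D3, SBM and FM libraries. Points are libraries with their number, the long line is the group mean and the bar is 1 SD each way (n = 3). For slc15a2, anpepb and dpp4 the FM libraries lie above all others, while D3 library 1 and SBM library 2 stand highest for slc6a19a.1, at 188 and 173 CPM.

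The peptide transporter genes behaved differently from each other. The gene slc15a2 encodes PepT2, the high-affinity peptide carrier best known from mammalian kidney and brain. It was at 541, 417 and 345 CPM in the D3 libraries, 636.5, 731 and 625 CPM in SBM, and 874, 1124 and 1063 CPM in FM. The 3 groups formed separate steps with no overlap, D3 lowest and FM highest. Group means were 435 ± 99 CPM in D3, 664 ± 58 CPM in SBM and 1020 ± 130 CPM in FM (SD, n = 3 each). The same order without overlap held on the FPKM scale. The 10 kidney tubule markers found summed to 0.0204% to 0.0369% of counts in the 9 libraries. Most of that sum was slc4a4a, the highest of the 5 that were tested, at 133 to 305 CPM. The tubule cotransporter gene slc12a1 was near 0, at 0.421 ± 0.18 CPM in D3, 0.434 ± 0.278 CPM in SBM and 1.11 ± 0.078 CPM in FM (SD, n = 3 each). It lay below FM without overlap in D3 and SBM, as did slc4a4a of the same list, at 187 ± 47.6 CPM in D3, 208 ± 34.3 CPM in SBM and 293 ± 11.4 CPM in FM. The other tested markers of the list, slc20a1a, slc22a6l and clcnk, overlapped between all groups. By mean, clcnk went the other way, at 0.944 CPM in D3, 0.434 CPM in SBM and 0.152 CPM in FM. Negative log2 fold changes were found for 4 of the 5 tested in D3 against FM and 3 of 5 in SBM against FM, with a median of −0.19 in each. The part of kidney RNA in slc15a2 was not tested.

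The gene slc15a1b encodes PepT1, the high-capacity peptide carrier of the enterocyte brush border. It was at 442, 199 and 193 CPM in the D3 libraries, 168, 357 and 135 CPM in SBM, and 195.5, 313 and 420.5 CPM in FM. All 3 groups overlapped, and libraries of 1 group differed widely: the coefficient of variation was 50.9% in D3, 54.5% in SBM and 36.4% in FM, against 22.8%, 8.74% and 12.8% for slc15a2. Its paralogue slc15a1a was lower, at 8.66 to 57.9 FPKM.

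Set against each other per length, slc15a1b over slc15a2 gave ratios of 1, 0.587 and 0.688 in the D3 libraries, 0.324, 0.6 and 0.265 in SBM, and 0.275, 0.342 and 0.486 in FM. The D3 ratios lay above every FM ratio and overlapped with SBM, where library 2 reached 0.6. Group means were 0.759 ± 0.217 in D3, 0.396 ± 0.179 in SBM and 0.368 ± 0.108 in FM (SD, n = 3 each).

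**Figure D2:**
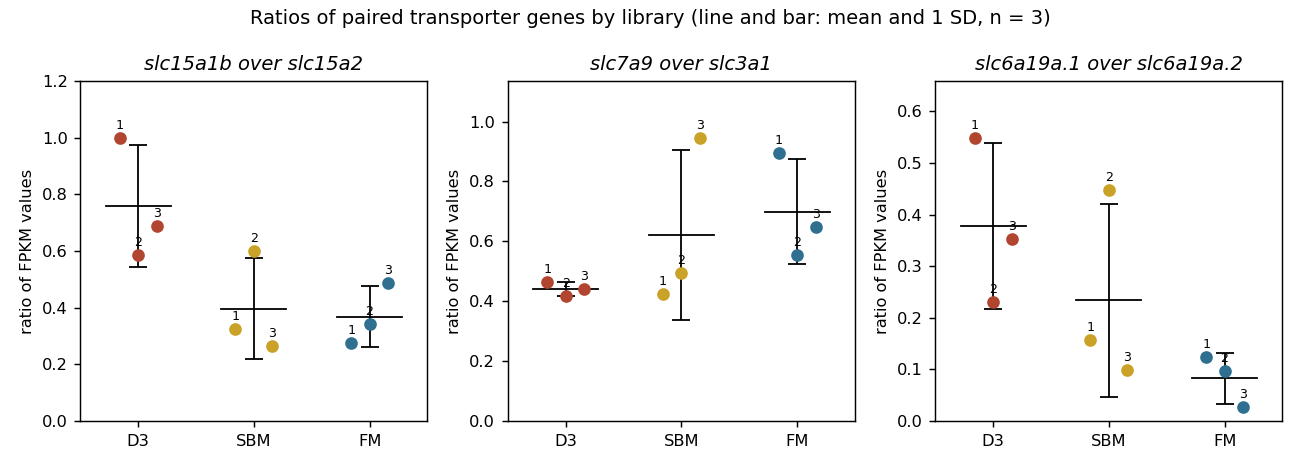
Ratio of deposited FPKM values (vertical axis, from 0) for 3 pairs of transporter genes in the D3, SBM and FM libraries. Points are libraries with their number, lines and bars are the mean and 1 SD (n = 3). The D3 ratios lie above FM for slc15a1b over slc15a2 and for slc6a19a.1 over slc6a19a.2, and below FM for slc7a9 over slc3a1.

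The gene slc6a19a.1 encodes a member of the SLC6A19 family, sodium-driven carriers of neutral amino acids in the brush border. It was at 188, 53.5 and 67.1 CPM in the D3 libraries, 33.3, 173 and 12 CPM in SBM, and 41.3, 62.8 and 14.1 CPM in FM. One library each of D3 and SBM stood far above its group, and all 3 groups overlapped. Those libraries, D3 library 1 and SBM library 2, were also 2 of the 3 highest in hepatocyte markers, and D3 library 2, the third of these, held 53.5 CPM of slc6a19a.1. Over the 9 libraries slc6a19a.1 had its highest correlation with the hepatocyte marker level among the 10 marker lists (r = 0.78, rho = 0.72), given as a description. The part of liver RNA in this spread was not tested.

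Its neighbour slc6a19a.2 is the next protein-coding gene in the RefSeq annotation (assembly GRCz12tu, used for names and order only). Within their groups, D3 library 1, SBM library 2 and FM library 2 were highest for both genes. By group mean, FM was highest for slc6a19a.2 but lowest for slc6a19a.1. The level of slc6a19a.2 is given next. It was at 198, 133 and 110 CPM in D3, 123, 223 and 70.5 CPM in SBM, and 192, 375 and 292 CPM in FM. The ratio of slc6a19a.1 to slc6a19a.2 in FPKM was 0.549, 0.231 and 0.353 in D3, 0.156, 0.447 and 0.098 in SBM, and 0.124, 0.0966 and 0.0278 in FM, with D3 above every FM library. How the counting treated reads that may match both neighbours is not given in the sources used here, so values of this pair are uncertain. The sequences of the pair were not compared. The third family gene, slc6a19b, was the most abundant, at 318 to 827 FPKM against 3.1 to 49.1 for slc6a19a.1 and 37.6 to 153 for slc6a19a.2. It stood at 882 ± 174 CPM in D3, 1217 ± 257 CPM in SBM and 1949 ± 385 CPM in FM (SD, n = 3 each).

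The genes slc7a9 and slc3a1 encode the light and heavy chains of 1 carrier, which takes up cystine and basic amino acids in exchange for neutral ones; loss of either chain causes cystinuria in humans. The light chain gene slc7a9 was at 111, 111.5 and 103 CPM in the D3 libraries, 93.1, 185 and 282 CPM in SBM, and 179, 285 and 284 CPM in FM. No D3 library reached the lowest FM library, and SBM overlapped with each of the other groups. The heavy chain gene slc3a1 was at 118, 132 and 116 CPM in D3, 108.5, 186 and 147 CPM in SBM, and 99.1, 254 and 217 CPM in FM. FM library 1 was the lowest of all 9 for slc3a1, so its groups overlapped.

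The 3 D3 libraries were close together for both chains, with a coefficient of variation of 4.25% for slc7a9 and 7.1% for slc3a1, against 50.5% and 26.3% in SBM and 24.4% and 42.6% in FM. The FPKM ratio of slc7a9 to slc3a1 was 0.464, 0.418 and 0.439 in D3, 0.424, 0.493 and 0.946 in SBM, and 0.894, 0.555 and 0.648 in FM. The D3 ratios thus lay below every FM ratio. SBM library 3, with 0.946, was the highest.

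The gene anpepb (anpepb.1 in current RefSeq naming) encodes an aminopeptidase N, which removes single amino acids from the start of peptides. It was at 3099.5, 3255 and 1623 CPM in the D3 libraries, 2727, 4252 and 3285 CPM in SBM, and 5654, 6805 and 6405 CPM in FM. All D3 and SBM libraries lay below every FM library, and D3 and SBM overlapped. The gene dpp4 encodes dipeptidyl peptidase 4, which releases dipeptides from peptides that carry proline or alanine near their start. It was at 238, 298 and 185 CPM in D3, 224, 346 and 349 CPM in SBM, and 388, 455 and 490 CPM in FM. It showed the same separation of FM from the other groups in CPM. On the FPKM scale SBM library 3 (145.8 FPKM) reached the FM range of 118.6 to 146.2 FPKM, so for dpp4 the separation of SBM from FM depends on the scaling.

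In fitted terms, 6 of the 7 genes had negative log2 fold changes in D3 against FM (47.6% of all genes did) and 6 of 7 in SBM against FM (50.5% of all genes), with slc6a19a.1 the exception each time. The median log2 fold change of the 7 was −0.88 in D3 against FM and −0.49 in SBM against FM, where the median of all genes tested was 0.04 and −0.01. In D3 against FM the gene values were −1.24 ± 0.32 (log2 fold change ± SE) for anpepb, −1.23 ± 0.23 for slc15a2, −1.20 ± 0.38 for slc7a9 and −0.88 ± 0.26 for dpp4. They were −0.64 ± 0.35 for slc3a1, −0.15 ± 0.49 for slc15a1b and 1.39 ± 0.97 for slc6a19a.1. In SBM against FM they were −0.88 ± 0.32 for anpepb, −0.62 ± 0.23 for slc15a2 and −0.54 ± 0.26 for dpp4. The other 4 genes lay between −0.49 ± 0.49 (slc15a1b) and 0.88 ± 0.96 (slc6a19a.1), which was −0.82 without SBM library 2. For slc15a1b in D3 against FM the sign also hung on single libraries, with 0.02 without D3 library 2, 0.03 without D3 library 3 and 0.12 without FM library 3. Any 2 of the 3 comparisons share the libraries of 1 group.

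**Figure D3:**
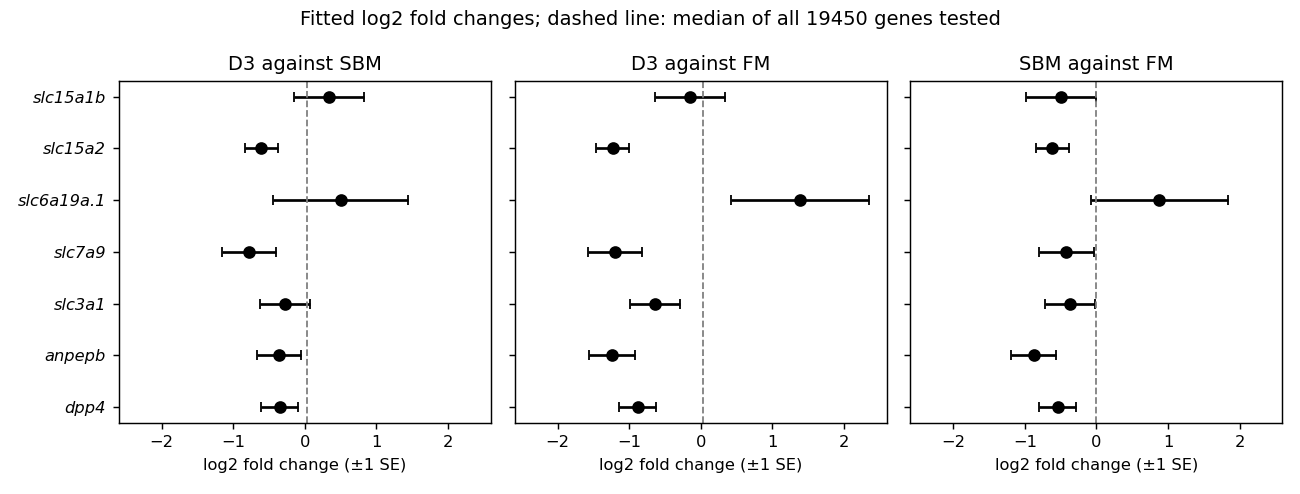
Fitted log2 fold change (horizontal axis) with 1 SE each way for the 7 absorption genes in the 3 comparisons. The dashed line is the median of all 19450 genes tested. The points of slc15a2, anpepb, dpp4, slc7a9 and slc3a1 lie left of it in all 3 panels, between −0.27 and −1.24, and slc6a19a.1 lies right of it with the widest bars.

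In D3 against SBM the values were smaller in size than in D3 against FM, except for slc15a1b. The value of slc7a9 was larger in size than in SBM against FM, where it was −0.42 ± 0.38. Negative values were found for 5 of the 7 genes (45.3% of all genes), from −0.27 ± 0.35 for slc3a1 to −0.78 ± 0.38 for slc7a9, with −0.61 ± 0.23 for slc15a2, −0.36 ± 0.31 for anpepb and −0.35 ± 0.26 for dpp4. Single libraries moved some of these: slc7a9 stood at −0.35 without SBM library 3, slc3a1 at −0.06 without SBM library 2, and anpepb at −0.12 without D3 library 3 and −0.17 without SBM library 2. The genes slc15a1b (0.34 ± 0.49) and slc6a19a.1 (0.50 ± 0.95) were positive. Without D3 library 1 both turned negative, to −0.17 and −0.28.

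None of the 7 genes passed the edgeR quasi-likelihood test at an adjusted p under 0.05 over all genes. The smallest adjusted p among them was 0.32 in D3 against FM, 0.541 in SBM against FM and 1 in D3 against SBM. The test called 0 of 19450 genes in each comparison, a background of 0%; 2954 genes in D3 against FM, 1738 in SBM against FM and 402 in D3 against SBM had an unadjusted p under 0.05. DESeq2 called 918 genes in D3 against FM, 4.97% of those it gave an adjusted p, and among them slc15a2 (DESeq2 adjusted p = 0.000184) and anpepb (DESeq2 adjusted p = 0.0182), each lower in D3. It called 238 genes (1.9%) in SBM against FM and 5 (0.026%) in D3 against SBM, and none of the 7. Without the 3 libraries richest in hepatocyte markers (SBM library 2, D3 libraries 1 and 2), edgeR called 9.77% of genes in D3 against FM, with slc15a2 and anpepb among them, on the single D3 library left. The median of the 7 was then −1.34 in D3 against FM, −0.71 in SBM against FM and −0.70 in D3 against SBM. Without SBM library 1 and D3 library 3, richest in oocyte markers, it was −0.73, −0.32 and −0.40.

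The groups did not overlap, with the first lower, for 4 of the 7 genes in D3 against FM, where 13.6% of all genes did so. The count was 3 of 7 in SBM against FM, against 10.3% of all genes, and 1 of 7, slc15a2, in D3 against SBM, against 2.56%. The first group lay above without overlap for 0 of the 7 in each, against 12.8%, 9.56% and 2% of all genes in the same order. Since the genes were picked with such values known, nothing is read from these shares.

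Markers of several cell types moved with slc15a2, slc7a9, anpepb and dpp4 over the 9 libraries, and less closely with slc3a1 (r = 0.67 with smooth muscle markers). For slc6a19a.1 r was −0.14 with smooth muscle and 0.05 with proliferation markers. For slc15a1b it was 0.17 with goblet but 0.84 with absorptive enterocyte markers. With absorptive enterocyte markers r was 0.72 for anpepb, 0.62 for slc15a2, 0.52 for dpp4, 0.42 for slc3a1, 0.41 for slc6a19a.1 and 0.26 for slc7a9. The level of 21 absorptive enterocyte markers, as mean log2 CPM centred on the 9 libraries, was 0.45, −0.12 and −0.54 in D3, −0.37, 0.18 and −0.79 in SBM, and 0.28, 0.52 and 0.40 in FM. In SBM against FM, 20 of the 21 had a negative log2 fold change and 10 lay below FM without overlap, where 10.3% of all genes did. In D3 against FM, 17 of the 21 were negative and 13 lay below without overlap, against 13.6% of all genes, while 1 lay above, against 12.8%. Smooth muscle markers, which mark the gut wall and not its epithelium, stood at −0.12, −0.32 and −0.52 in D3, −0.33, 0.18 and −0.04 in SBM, and 0.29, 0.46 and 0.39 in FM. All 8 smooth muscle markers had negative values in D3 against FM and 8 of 8 in SBM against FM, and so had 16 of 16 exocrine pancreas markers in each. Of 5 goblet cell markers, 4 were negative in D3 against FM and 5 in SBM against FM. All 12 proliferation markers had positive values in both, with medians of 2.27 in D3 against FM and 1.68 in SBM against FM. So had all 15 oocyte markers (medians 3.99 and 4.0) and all 17 hepatocyte markers (medians 3.44 and 3.24). The proliferation level was highest in the oocyte-rich libraries, at 2.01 in D3 library 3 and 1.7 in SBM library 1. The 12 markers of lysosome-rich and ileal enterocytes stood at −0.47, −0.09 and −0.40 in D3, −0.46, 0.29 and 0.16 in SBM, and 0.28, 0.25 and 0.44 in FM. The 17 hepatocyte markers were highest in SBM library 2, D3 library 2 and D3 library 1, at 3.76, 3.44 and 1.89, and the 15 oocyte markers in D3 library 3 and SBM library 1, at 3.56 and 3.31. FM ranged from −2.54 to −0.09 for hepatocyte markers and from −2.82 to −1.32 for oocyte markers.

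When the mean of the enterocyte markers was subtracted in each library, SBM and FM overlapped for all 7 genes. How many of all genes overlap on this scale was not computed. The subtracted level itself, centred, ran from −0.79 to 0.18 in SBM and from 0.28 to 0.52 in FM. Subtracting it therefore also changes the spread within groups, and nothing is read from overlap on this scale. The difference in means of SBM minus FM for slc15a2 was 0.11 on this relative log2 scale, against −0.61 before, and for anpepb it was −0.17, against −0.90. In D3 against FM, slc15a2 stayed below without overlap (−0.78, against −1.25 before), as did anpepb (−0.83, against −1.30). The other genes that were below FM before, dpp4 (−0.43, against −0.91) and slc7a9 (−0.70, against −1.17), overlapped with FM on the relative scale. The gene slc6a19a.1 lay above FM without overlap on the relative scale, by 1.87. In D3 against SBM, slc15a2 stayed below without overlap, with a difference of −0.89. The scaffold gene pdzk1 is in this marker list and also among the partners of peptide carriers, and the choice of marker list sets these relative values. The part of these markers in the differences was not tested.

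**Figure D4:**
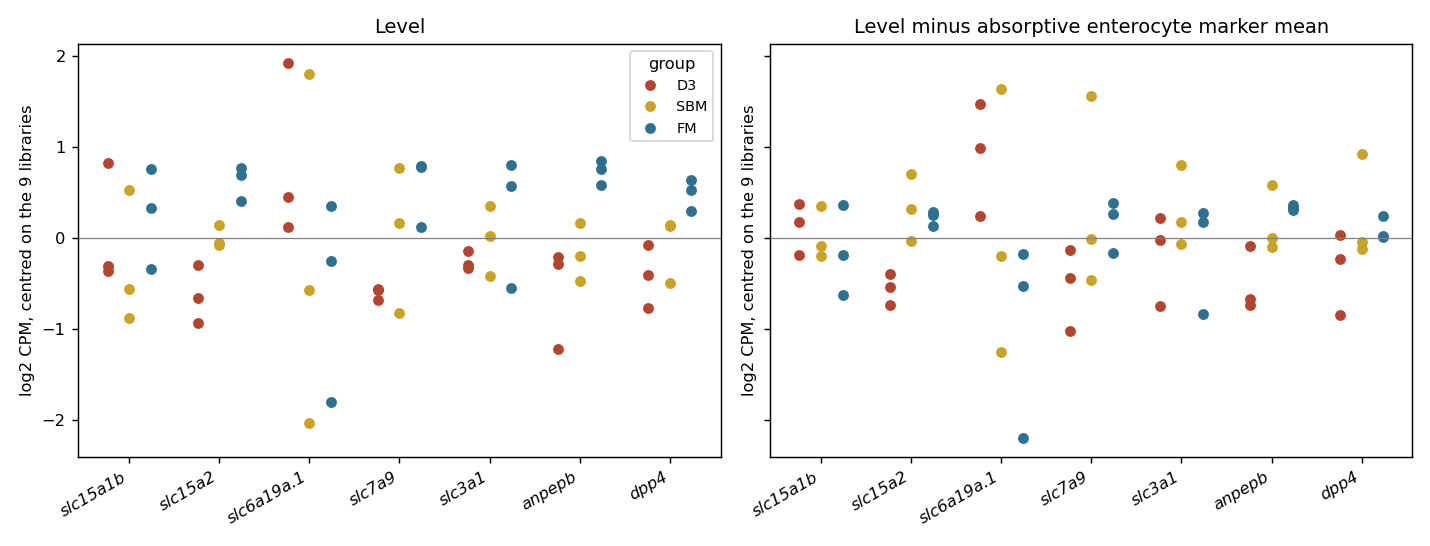
Level of each absorption gene in the 9 libraries as log2 CPM centred on the 9 libraries, plain (left) and after subtracting the mean of 21 absorptive enterocyte markers (right). Points are libraries, coloured by group in the order D3, SBM, FM. On the right the SBM and FM points of anpepb and slc15a2 overlap, and the D3 points of slc15a2 stay lowest.

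Across the 9 libraries the 7 genes fell into unlike patterns, given here as a description, since the libraries share their mixture of tissues. The 10 pairs among slc15a2, slc7a9, slc3a1, anpepb and dpp4 had Pearson correlations of log2 CPM between 0.61 and 0.95. The closest pair was anpepb and dpp4 (r = 0.95, rho = 0.97), followed by slc15a2 and anpepb (r = 0.93, rho = 0.88). The carrier chains slc7a9 and slc3a1 had r = 0.74 and rho = 0.82. The 6 pairs with slc15a1b lay between 0.19 and 0.51 and those with slc6a19a.1 between −0.46 and 0.48. Set against the levels of the 10 marker lists, slc15a1b was closest to absorptive enterocyte markers (r = 0.84) and kidney tubule markers (0.78). The kidney tubule level is a mean of only 5 tested genes. Of these, slc12a1 (0.121 to 1.17 CPM) and clcnk (0.0302 to 2.09 CPM) were low throughout. The gene dpp4 had r = 0.94 with lysosome-rich and ileal markers, 0.93 with smooth muscle, 0.91 with goblet and −0.93 with proliferation markers. The gene anpepb had r = 0.96 with smooth muscle and −0.94 with proliferation markers, and slc15a2 had 0.94 with smooth muscle. With oocyte markers r was −0.88 for anpepb, −0.86 for dpp4 and −0.69 for slc15a2.

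Among the other 8939 genes with a mean of at least 10 CPM, those most like each of the 7 were found by the Pearson correlation over the 9 libraries. For slc15a2 the closest was the neutral amino acid carrier gene slc6a19b (r = 0.972), then nbeal1 (0.963) and itga1 (0.952). For anpepb they were the zinc exporter gene slc30a1a (0.988), plpp1a (0.981) and mapre3b (0.979), and for dpp4 LOC100536511 (0.987), si:cabz01083442.1 (0.981) and lipf (0.977). For slc7a9 they were si:dkey-61p9.11 (0.982), pbxip1b (0.975) and the lysosomal hexosaminidase gene hexa (0.970), and for slc3a1 lfng (0.990), rufy2 (0.979) and msl1a (0.973). The genes closest to slc15a1b were less close, pcyox1 (0.946), btg1 (0.945) and dlst (0.934). For slc6a19a.1 they were zgc:162183 (0.935), the phosphate transporter gene slc34a2a (0.922) and cbsb (0.919). For the mean profile of all 7 the closest were h3f3c (0.987), zgc:92161 (0.979), lxn (0.978), magi1a and mlnl (each 0.974), abo (0.971), dqx1 (0.965), zgc:110339 and serpinb1 (each 0.964) and s100a10a (0.963).

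A further 122 genes were listed in 7 groups: carriers and their partners, peptidases, enterocyte transcription factors and genes of the amino acid shortage response. Of these, 108 were found and 104 tested, and 0 passed the edgeR test in any comparison. All 10 other apical carriers and their partners had negative values in D3 against FM (median log2 fold change −0.78), and 9 of 10 in SBM against FM (median −0.69). The glutamate carrier gene slc1a1 was at 102.5, 126 and 89.5 CPM in D3, 94.9, 202 and 157.5 CPM in SBM, and 267, 325 and 277 CPM in FM. Its log2 fold change in SBM against FM was −0.93 ± 0.29. The family member slc6a18 was at 117 ± 33.8 CPM in D3, 145 ± 47.1 CPM in SBM and 259.5 ± 34.7 CPM in FM (SD, n = 3 each), with −0.84 ± 0.31 in SBM against FM.

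Of the 16 other brush border peptidase genes, 12 had negative values in D3 against FM (median −0.69) and 13 in SBM against FM (median −0.61). The meprin gene mep1a.2, which encodes a membrane metalloprotease, was at 370, 327 and 287 CPM in D3, 289, 678 and 329.8 CPM in SBM, and 746, 847 and 933 CPM in FM (−0.96 ± 0.33 in SBM against FM). The dipeptidase gene naalad2 was at 129.6 ± 21.5 CPM in D3, 147 ± 30.9 CPM in SBM and 236.5 ± 13.8 CPM in FM (SD, n = 3 each), with −0.69 ± 0.23 in SBM against FM. The aminopeptidase paralogue anpepa was at 721 ± 207 CPM in D3, 938 ± 288.5 CPM in SBM and 1493 ± 51.9 CPM in FM, and its FPKM ratio to anpepb, 0.204 to 0.341 over the 9 libraries, overlapped between all groups.

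Other peptide transporters and their proton or scaffold partners had negative values for 6 of 7 genes against FM in each of D3 (median −0.55) and SBM (median −0.65). The scaffold genes pdzk1 and slc9a3r1a encode proteins that bind transporters at the apical membrane. Their log2 fold changes in SBM against FM were −0.72 ± 0.32 for pdzk1 and −0.65 ± 0.27 for slc9a3r1a. Transcription factor genes of the enterocyte were negative for 14 of 17 in D3 against FM (median −0.36) and 13 of 17 in SBM against FM (median −0.50). The caudal-type gene cdx1a was at 85.2, 87.4 and 60.5 CPM in D3, 78.5, 149.7 and 120.1 CPM in SBM, and 195, 208 and 206 CPM in FM (−0.81 ± 0.27 in SBM against FM). Against this, gata4 was at 4.13, 2.11 and 0.767 CPM in D3, 0.436, 2.22 and 0.239 CPM in SBM, and 0.231, 0.151 and 0.129 CPM in FM (2.47 ± 0.96 in SBM against FM). It was low throughout and highest in D3 library 1, SBM library 2 and D3 library 2, the 3 libraries richest in hepatocyte markers. The part of liver RNA in the gata4 values was not tested.

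Genes of the later steps, and those of the response to amino acid shortage, had medians nearer to 0. Basolateral and housekeeping amino acid carriers had a median of −0.11 in D3 against FM and 0.02 in SBM against FM, with 10 and 8 of 17 negative. Below FM without overlap lay 4 of the 17 in D3 and 2 in SBM, where 13.6% and 10.3% of all genes did. The 4 in D3 were slc7a8a, slc3a2a (468 ± 78.7 CPM, against 787 ± 172 CPM in FM), slc43a2b (591 ± 59.7 against 907 ± 111 CPM) and slc16a10 (87.4 ± 25.5 against 135 ± 18.5 CPM; SD, n = 3 each). On the FPKM scale only slc43a2b of these 4 lay below FM without overlap. In CPM, 0 of the 17 in D3 and 1 in SBM lay above FM without overlap, where 12.8% and 9.56% of all genes did. Without the 3 libraries richest in hepatocyte markers the medians were −0.31 in D3 against FM and −0.30 in SBM against FM, with 11 and 12 of 17 negative. The medians of all genes in that fit, with D3 library 3 alone in its group, were −0.18 and −0.04. The basolateral neutral carrier gene slc7a8a was at 187 ± 39.5 CPM in D3, 181 ± 22.3 CPM in SBM and 275.5 ± 25 CPM in FM (−0.60 ± 0.22 in SBM against FM), while slc7a6 was highest in the libraries rich in oocyte markers, at 16.4 CPM in D3 library 3 and 17 CPM in SBM library 1, against 2.3 to 5.49 CPM elsewhere. Intracellular peptidase genes had medians of 0.09 in D3 against FM and −0.25 in SBM against FM (9 and 12 of 20 negative). In D3 these genes split both ways. Below FM without overlap lay 6 of the 20 in D3 and 3 in SBM, where 13.6% and 10.3% of all genes did. Above FM without overlap lay 6 in D3 and 1 in SBM, where 12.8% and 9.56% of all genes did. These counts are in CPM and shift with the scaling. On the FPKM scale acy1 and acy3.2 in D3 no longer lay below FM without overlap, while thop1 and blmh lay above it. The log2 fold changes in D3 against FM were −0.87 ± 0.27 for pepd, −0.98 ± 0.32 for dpp7 and 0.78 ± 0.28 for dpp3. In the same list, nln was at 19.3 CPM in D3 library 3 and 14.3 CPM in SBM library 1, against 0.758 to 2.27 CPM in the others. In the same libraries tpp2 was at 25 and 36.8 CPM, against 11.3 to 18.4 CPM elsewhere. Genes induced by amino acid shortage had medians of 0.22 and −0.07 (7 and 9 of 17 negative). The serine synthesis gene phgdh followed the oocyte-rich libraries too, at 19.1 CPM in D3 library 3 and 19.8 CPM in SBM library 1, against 0.744 to 3.97 CPM elsewhere. The stress-response factor gene atf3 was at 36.8, 23.7 and 18 CPM in D3, 29.9, 24.5 and 49.2 CPM in SBM, and 133, 44.7 and 71 CPM in FM (−1.26 ± 0.46 in SBM against FM). The part of oocyte RNA in the slc7a6, nln, tpp2 and phgdh values was not tested.

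**Figure D5:**
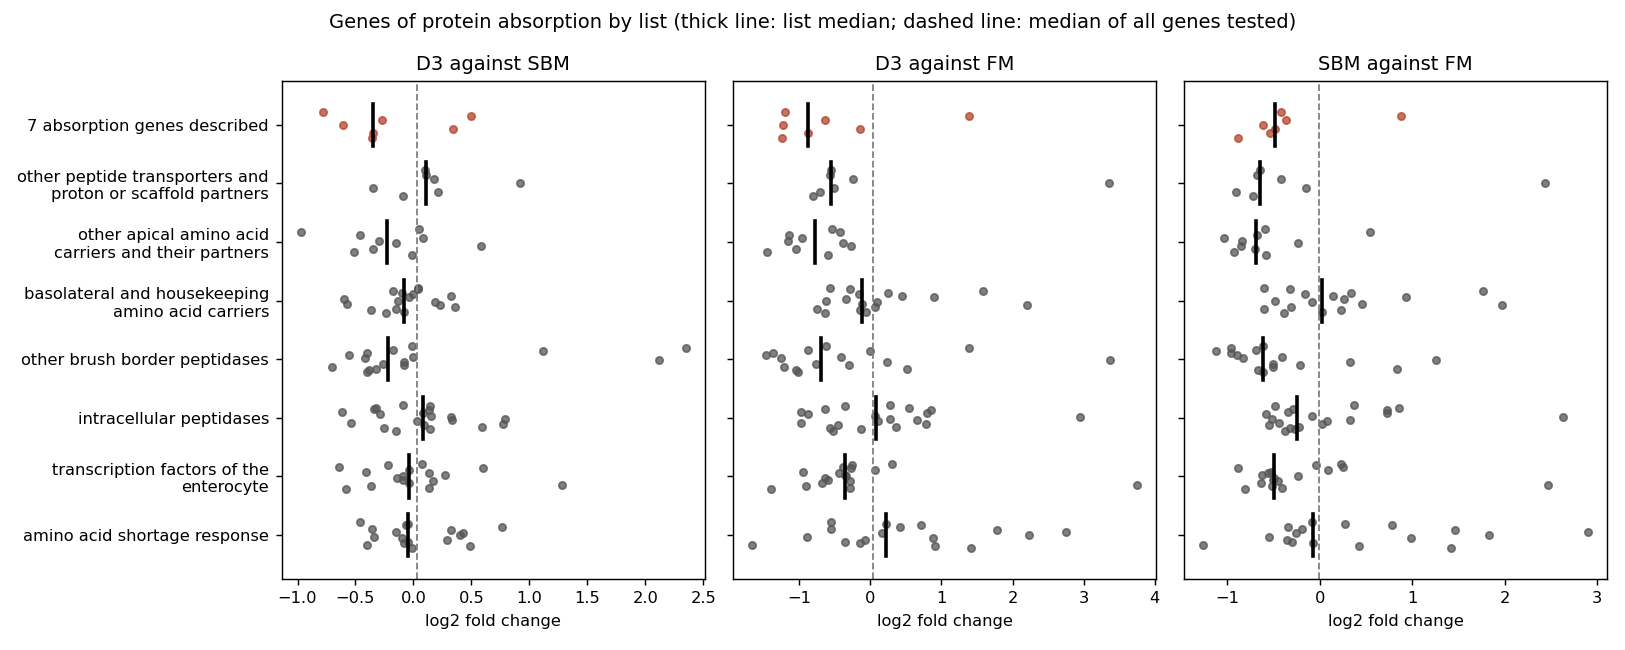
Log2 fold change (horizontal axis, a separate scale in each panel) of each tested gene of the 7 absorption genes and of 7 further lists, in the 3 comparisons. Points are genes, thick lines are list medians and the dashed line is the median of all genes tested. Against FM, the medians of apical carriers and brush border peptidases lie between −0.61 and −0.78, while those of basolateral carriers lie at −0.11 and 0.02.

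In D3 against SBM the 7 further lists had medians between −0.23 (other apical carriers) and 0.11 (other peptide transporters and partners). With scaling by library size alone the median of all genes moved to 0.30 in D3 against FM and 0.26 in SBM against FM. The medians of the 7 genes were then −0.63 and −0.28, those of apical carriers −0.53 and −0.44, and those of brush border peptidases −0.43 and −0.36. The signs turned under that scaling for basolateral carriers in D3 against FM (0.15), and in SBM against FM for intracellular peptidases (0.02) and amino acid shortage genes (0.25).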

How the data were processed

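RNA of 9 intestine samples was measured by sequencing; per the labels' protocols, a Qiagen RNeasy kit gave the RNA and a SMARTer mRNA kit the libraries. The authors deposited a table of raw counts per gene and a table of FPKM values. From the values, the deposited FPKM is the count over 1 length per gene and the library total, since the implied length was whole within 0.01 for 26982 of 26983 genes. The sources used here do not name aligner, counter, strand, genome build or annotation. RefSeq (assembly GRCz12tu) holds 6 of the 7 names as current symbols and 1 as a synonym.

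Groups came from the titles. The main test was edgeR 4.0.16 in R 4.3.3 (filterByExpr, minimum count 10; TMM factors of 0.846 to 1.204; 1 quasi-likelihood fit of 9 libraries, 6 residual degrees of freedom; two-sided, Benjamini-Hochberg). SE is the log2 fold change over the square root of F. Log2 CPM used a prior count of 2. Alternatives used DESeq2 1.42.0 and limma 3.58.1. The fit was tested on simulated data. The genes and lists were chosen with earlier results of these data known. Beyond the 7, the genes named are the 2 with the smallest p in SBM against FM in each list and the 3 (for the mean profile, 10) most correlated. The genes slc6a19a.2, slc6a19b, slc15a1a and anpepa were added as paralogues, and mep1b and tmprss15 as observations, after their values were seen. The list members slc3a2a, slc43a2b, slc16a10, pepd, dpp7, dpp3, acy1, acy3.2, thop1 and blmh were also named after their values were seen. The markers fabp2, vil1, slc12a1, slc4a4a, slc20a1a, slc22a6l, clcnk and pdzk1 are named from the marker lists. All relative levels use mean log2 CPM of the tested markers in each library.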

Additional observations from a re-analysis of the deposited data

How the results depend on the processing

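The counts of genes called and the 7 log2 fold changes were recomputed under 19 alternatives, of which 17 were planned and the 2 that leave out libraries rich in oocyte or hepatocyte markers were added after seeing the data. Of 399 recomputed fold changes of the 7 genes, 384 kept their direction and their side of the threshold, 11 changed sign and 4 passed the threshold. The edgeR count of 0 became 5, 918 and 238 with DESeq2 in D3 against SBM, D3 against FM and SBM against FM. It became 2053 (9.77% of the genes tested) in D3 against FM without SBM library 2 and D3 libraries 1 and 2, a fit that leaves 1 D3 library, assumed to vary like the other groups; there slc15a2 stood at −1.64 (edgeR adjusted p = 0.0362) and anpepb at −2.03 (edgeR adjusted p = 0.0355). The count stayed 0 in every other fit. In the fit without the hepatocyte-rich libraries the 1 D3 library was library 3, the highest in oocyte markers. All sign changes concerned slc15a1b or slc6a19a.1. For slc15a1b in D3 against FM the value was 0.10 with library size alone, 0.07 with limma on log2(FPKM + 1) and on log2(FPKM + 0.1), and 0.05 without the 2 oocyte-rich libraries. For slc6a19a.1 in SBM against FM it was −0.84 without the 3 hepatocyte-rich libraries. With each library left out in turn, slc15a1b ranged from −0.17 to 0.89 in D3 against SBM and from −0.67 to 0.12 in D3 against FM. Likewise slc6a19a.1 ranged from −0.28 to 2.2 in D3 against SBM and from −0.82 (without SBM library 2) to 1.38 in SBM against FM. In D3 against FM slc15a2 kept −1.43 to −1.11 and anpepb −1.43 to −1. The cause of these shifts was not tested. The replicate block, which takes the number in the title as a pairing, left the counts at 0. Same-numbered libraries deviated together in some pairs only (correlations of −0.578 to 0.519), and for 9 of 18 matches the closest library had the same number, so the numbers were not taken as pairs.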

Other observations

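The peptidase genes outside the 7 held another contrast within the D3 group. The meprin gene mep1b was at 543, 104 and 275 CPM in the D3 libraries, 121, 207 and 96.6 CPM in SBM, and 212, 330 and 382 CPM in FM, so its highest and its second lowest value both came from D3. The enteropeptidase gene tmprss15, whose product activates trypsin, was at 7.17, 0.959 and 0.24 CPM in D3, 0.339, 0.751 and 0.55 CPM in SBM, and 1.85, 0.846 and 0.485 CPM in FM. D3 library 1, the highest for mep1b and tmprss15, was also the highest for slc15a1b (442 CPM) and slc6a19a.1 (188 CPM) and the lowest for the lysosome-rich and ileal marker level (−0.47). These genes were picked after their values were seen, and no test was made.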
